A study of Mus musculus with 5 samples.

Results

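MHC class II macrophages without border markers are brain myeloid cells that carried a high level of the antigen-presentation genes Cd74, H2-Aa, H2-Ab1 and H2-Eb1 while the genes that mark microglia, border macrophages, Cd209a-expressing cells and Ly6c2-expressing monocytes stayed low. They were 159 of 825 single cells, or 19.3% (exact binomial 95% interval 16.6 to 22.1). The members were chosen well by well from measured values. A well had to hold 1 cell with at least 500 unique molecular identifiers (UMIs, each counting 1 captured mRNA molecule) outside the spike-ins. Its UMIs of Cd74, H2-Aa, H2-Ab1 and H2-Eb1 had to sum to at least 150 per 10000. The microglia genes P2ry12, Tmem119, Sparc, Olfml3, Selplg and Gpr34 had to sum to less than 80 per 10000, and the border macrophage genes Mrc1, Stab1, Pf4, Cbr2, Dab2, Lyve1, Cd163 and Cd209f to less than 40. No more than 2 UMIs were allowed over Cd209a, Napsa, Olfm1, Ccl17 and Alcam, and no more than 2 over Ly6c2, Ccr2, Plac8, Ms4a4c and Ly6i. These 28 genes are therefore given below as a description, with no test.

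The cells came from brains of heterozygous DM-hTAU mice, which carry a human tau transgene with a pair of mutations linked to frontotemporal dementia, driven by the natural tau promoter on a mixed BALBc and C57/BL6 background. All 5 libraries share 1 label set: DM-hTAU, 9 months of age, and treatment with aPDL1, an antibody against the checkpoint ligand PD-L1. The text of the study also speaks of sorting cells from isotype-treated mice, and whether any of these cells came from such mice cannot be told from the labels. No library labelled as untreated, isotype-treated or wild-type was analysed here, so nothing below compares treatments or genotypes. Whether the antibody or the transgene acted alike on members and comparison cells was not tested. The sort took CD45-high CD11b-high cells, a gate meant for monocyte-derived macrophages that can also hold activated microglia, border macrophages, neutrophils and dendritic cells. Each library is a 384-well plate processed by MARS-seq, a plate method that counts the 3′ ends of mRNAs. The sources do not tie the plates to separate mice, so p-values measure only the spread between plates, which may be technical. The labels name brain as the tissue, while the tissue preparation given with them is of thymus and small intestine.

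MHC class II molecules display peptides from engulfed or internalised protein to CD4 T cells. An alpha and a beta chain (H2-Aa with H2-Ab1, and the beta chain H2-Eb1 of the E molecule) assemble around the invariant chain Cd74, which is then cut by cathepsins such as Ctss, and H2-DM exchanges its last fragment for a peptide. Resting microglia carry little MHC class II, whereas macrophages of the meninges, perivascular spaces and choroid plexus, monocyte-derived macrophages and dendritic cells can carry much of it. Separating these sources by RNA alone is difficult, because macrophages in the brain share most of their lysosomal, complement and lipid genes.

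Of the 4 MHC class II genes of the rule, 3 sit close together. H2-Ab1, H2-Aa and H2-Eb1 lie on chromosome 17 of mm10, at chr17:34257689-34269419, chr17:34282744-34287823 and chr17:34305867-34316674 (GENCODE vM21 annotation of GRCm38). Their promoters are shown because the level of these genes is what defines the cells. Transcription of MHC class II genes runs through a shared set of promoter boxes, of which the Y box is bound by NF-Y and contains the letters ATTGG. The RefSeq promoter table (GRCm38.p6) held H2-Aa and H2-Eb1, 2 of the 4 genes, and H2-Ab1 and Cd74 were not matched. The 250 bases before each gene start are written 5′ to 3′ on the gene's own strand, at chr17:34287824-34288073 (minus strand) and chr17:34305617-34305866 (plus strand), with ATTGG and its reverse complement CCAAT in capitals.
H2-Aa: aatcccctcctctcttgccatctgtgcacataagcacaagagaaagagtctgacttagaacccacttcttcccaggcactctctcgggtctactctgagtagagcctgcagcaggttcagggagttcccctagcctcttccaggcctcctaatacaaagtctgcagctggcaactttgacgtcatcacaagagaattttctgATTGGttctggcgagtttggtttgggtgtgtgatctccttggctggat
H2-Eb1: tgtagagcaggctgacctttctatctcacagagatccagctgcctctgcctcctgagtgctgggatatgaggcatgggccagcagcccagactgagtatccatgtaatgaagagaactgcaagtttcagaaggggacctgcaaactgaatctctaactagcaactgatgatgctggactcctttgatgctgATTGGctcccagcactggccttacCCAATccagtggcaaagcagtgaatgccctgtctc
H2-Aa held the letters 1 time, with the match beginning 48 bases before the start. H2-Eb1 held them 2 times, beginning 59 and 35 bases before the start, the first on the gene's strand and the second on the opposite strand. Of 32851 RefSeq promoters of the same length, 33.8% held ATTGG on either strand, so a match is a description and not a site.

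Values of the 5 libraries are given in the order AB5863, AB5864, AB5865, AB5867, AB5876. The members made up 15 of 68 kept cells (22.1%), 16 of 87 (18.4%), 62 of 285 (21.8%), 5 of 71 (7.04%) and 61 of 314 (19.4%). The mean share was 17.7% ± 6.17 (SD, n = 5 libraries). AB5867 stood below the others and contributed only 3526 of the members' 195653 UMIs. AB5865 and AB5876 contributed 78578 and 89299 UMIs, so every pooled level below leans on these libraries. The whole libraries held 128201 to 549824 UMIs, the kept cells a median of 1015 and the members a median of 956 (504 to 5773). The 20 wells left empty as controls held 2 to 68 UMIs, and none reached the cell minimum. Rows of ribosomal RNA sequence took 1651 of every 10000 member UMIs, from 906 in AB5863 to 1875 in AB5876. The 384 cell barcodes recur in all 5 libraries, each with pool barcodes of its own, and 0 pairs of pool and cell barcode were shared.

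**Figure D1:**
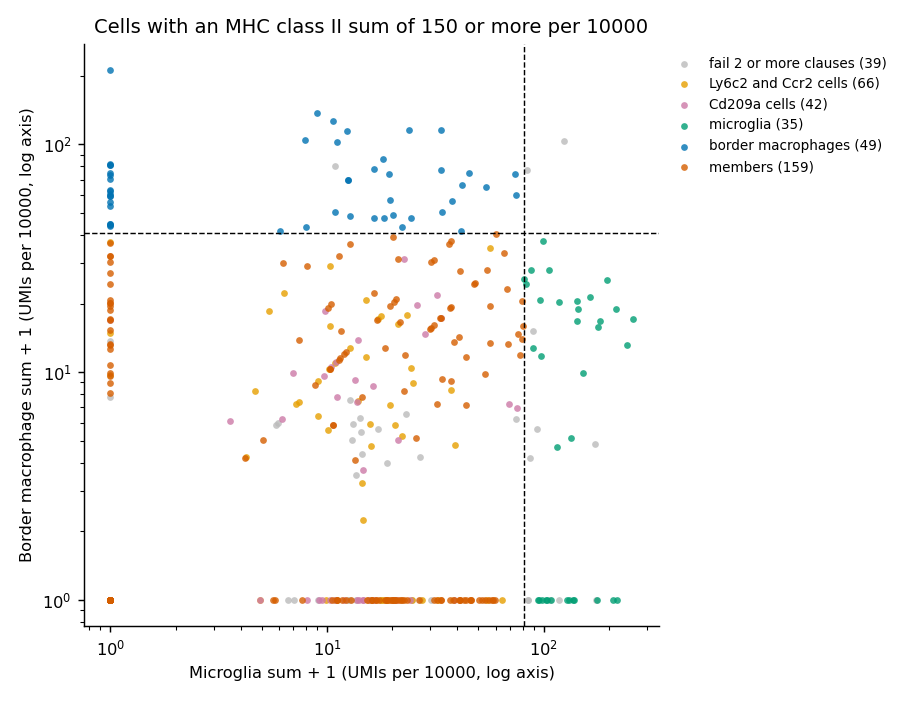
Each point is 1 of the 390 cells whose MHC class II sum was at least 150 per 10000. The x axis gives the microglia sum and the y axis the border macrophage sum, both as UMIs per 10000 plus 1 on log axes, and the dashed lines mark the thresholds of 80 and 40. The 159 members fill the lower left field, where many cells sit at 0 for one or both sums, while 49 border macrophages lie above the horizontal line and 35 microglia to the right of the vertical line. Cells of the other colours in the lower left field failed the Cd209a or the Ly6c2 clause.

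Applied in order, the clauses took 825 kept cells to 390 with high MHC class II, then 344 after the microglia clause, 294 after the border clause, 225 after the Cd209a clause and 159 after the Ly6c2 clause. Members were spread widely over the MHC class II sum, from 155 to 1280 per 10000 with a median of 464. Most were far from the other thresholds: the microglia sum had a median of 17.5 and the border sum one of 7.1 per 10000. In raw UMIs, 41 members had none of the microglia genes, 70 none of the border genes, 129 none of the Cd209a clause and 99 none of the Ly6c2 clause. At the thresholds the cells were continuous. Among cells that passed every other clause, the nearest on either side had MHC class II sums of 140 and 155, microglia sums of 79.2 and 80.6 and border sums of 39.4 and 40.6 per 10000. Between 32 and 48 per 10000 of the border sum there were 7 cells below the threshold and 13 above it.

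Nearly all members carried macrophage genes that the rule did not use. Of 159 members, 153 had at least 1 UMI of the 12 macrophage genes examined and 147 had UMIs of 3 or more of them. C1qa, C1qb and C1qc, the chains of the complement starter C1q made by tissue macrophages, summed to 113 per 10000 (exact Poisson interval 108 to 118), and 151 members had a C1q UMI. Thinned to 500 UMIs a cell the share with C1q was 92.9% (95% unthinned). In 31 neutrophil wells (S100a8 and S100a9 at 300 per 10000 or more), which should lack C1q and serve as the background, the share was 42.9% (54.8% unthinned) and the C1q level 15.1 per 10000. The median depths were 956 and 686 UMIs. A UMI of the 12 macrophage genes was also found in 22 of the 31 neutrophil wells. It was found in 41 of 42 Cd209a cells and 64 of 66 cells that failed only the Ly6c2 clause. At 500 UMIs these shares were 57.9%, 77.2% and 93.1%, beside 95.8% in the members. UMIs of 3 or more of the genes were found in 2, 27 and 59 of these cells. A single macrophage UMI therefore did not set the members apart. The members without a macrophage UMI were 6, with a median of 626 UMIs, and what they are was not tested.

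Among the genes of the rule, every member had Cd74, the invariant chain, at 174 per 10000 pooled. Cd74 measured 141, 177, 200, 108 and 158 per 10000 in the 5 libraries. The alpha chain H2-Aa measured 134, 127, 133, 156 and 110 in the same order, the beta chain H2-Ab1 95.1, 89.1, 105, 56.7 and 82.8, and H2-Eb1 83.0, 101, 109, 113 and 86.5. No library was low for all 4 genes: AB5867, with 5 cells, was lowest for Cd74 and H2-Ab1 and highest for H2-Aa and H2-Eb1. UMIs here are counted once per molecule at the 3′ end and are not divided by length. The members' MHC class II sum was 486 per 10000, beside 399 in border macrophages, 333 in microglia and 478 in Cd209a cells that passed the same clause; all these cells had been chosen on that sum.

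The machinery that loads MHC class II was present but unevenly measured. Ctss, the cathepsin that trims the invariant chain, was at 58.0 per 10000, with 83.0, 29.2, 60.1, 53.9 and 58.1 in the 5 libraries, AB5864 lowest. H2-DMa and H2-DMb1, the chains of the peptide exchanger, were at 11.8 and 9.61 per 10000. H2-DMa reached 52.6 in AB5863 and 7.95 to 11.7 in the others, and 50 of its 230 UMIs came from 1 cell. Ifi30, a lysosomal thiol reductase that unfolds antigens, had 103 UMIs in 46 members, and Ciita, the master activator of the MHC class II genes, 24 UMIs. Rfx5, a subunit of the X box factor, and the class II rows H2-Ea-ps and H2-Eb2 had 0 UMIs, which allows up to 0.153 per 10000 from counting error alone. The 17 loading and control genes summed to 105 per 10000.

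The MHC class I genes, which display peptides of the cell's own proteins to CD8 T cells, summed to 132 per 10000, with B2m, the light chain, at 70.6, H2-D1 at 20.3 and H2-K1 at 13.4. Signals that T cells read beside the peptide were sparse. Of 16 costimulation and checkpoint genes, 14 had a UMI and the sum was 19.1 per 10000. Cd86 had 26 UMIs, Cd80 2 and Cd40 0, and Cd274, which encodes PD-L1 itself, had 4 UMIs in 2 members. Slamf7, a surface receptor of the SLAM family, had 45 UMIs in 28 members (10% at 500 UMIs, with 0 UMIs in neutrophil wells) and lay between 1.01 and 2.84 per 10000 in every library. Slamf7 had 0 UMIs in border macrophages and in microglia with high MHC class II, which allows up to 0.666 and 0.583 per 10000, and 2.60 per 10000 in Cd209a cells. That difference was not tested.

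Outside the rule, Apoe, the main lipid carrier of the brain, had the highest level of any gene that is neither ribosomal, mitochondrial nor a row of shared sequence, at 159 per 10000 (154 to 165). It measured 243, 75.9, 143, 119 and 179 per 10000 in the libraries, which averaged 152 ± 63.2 (SD, n = 5). AB5864 was lowest and AB5863 highest. Single members ranged from 0 to 922 with a median of 120, and 146 had an Apoe UMI (87.8% at 500 UMIs, against 48.5% in neutrophil wells). Trem2, a lipid receptor, and its adaptor Tyrobp were at 7.51 and 18.0 per 10000. Lpl, Gpnmb and Spp1, which rise in disease-associated microglia, had 52, 0 and 12 UMIs. Lyz2, the myeloid lysozyme, was at 61.8 per 10000 (43.1 to 105 over libraries), and at 124 per 10000 in neutrophil wells; the part of stray neutrophil RNA in the members' value was not tested.

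Clptm1, a transmembrane protein gene, was among the 15 most abundant genes of the members outside the rule, with 587 UMIs (30.0 per 10000). Clptm1 and Apoe both lie on the minus strand of chromosome 7, Clptm1 at chr7:19631571-19665033 and Apoe at chr7:19696109-19699188, with 31075 bases between them, Clptm1 downstream. The number of Clptm1 UMIs per Apoe UMI was 0.0167, 0.11, 0.332, 0.0952 and 0.121 in the libraries, lowest in AB5863 and highest in AB5865.

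Of the markers proposed for these cells that the rule did not use, Ccl12 and Tmem91 were both low. Ccl12, a monocyte-attracting chemokine, was at 12.7 per 10000 and was found in 64 members (40.3%, 30.4% at 500 UMIs, against 12.9% and 6.82% in neutrophil wells). It measured 2.02, 1.39, 12.7, 0 and 16.2 per 10000 in the libraries. These levels are scaled to total UMIs, and Ccl12 was higher in AB5865 and AB5876, the libraries with the most UMIs. The reason for this difference was not tested. Single cells reached 203 per 10000. Tmem91, a membrane protein gene of poorly known function, had 35 UMIs in 24 members (15.1%, 7.49% at 500 UMIs), with 0 UMIs in AB5867 and in neutrophil wells. It was at 1.78 per 10000 in border macrophages, beside 1.79 in the members. Another transcript, E130307A14Rik, is shown as a caution: 22 of its 23 UMIs came from 1 cell.

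The 16 chemokine genes summed to 36.7 per 10000, with Cxcl16 at 4.55 and Ccl6 at 3.63 next to Ccl12, and 24 of the 67 UMIs of the interferon-gamma-induced Cxcl9 lay in 1 cell. Il6, Il10 and Il12b had 0 UMIs, Tnf 5 and Il1b 45 UMIs in 12 members. The 32 interferon-induced genes summed to 80.2 per 10000, led by Ly6e at 20.2, and were lowest in AB5864 at 27.1 and highest in AB5865 at 88.3. Msr1, a scavenger receptor for aggregated proteins, had 18 UMIs in 11 members, and the growth factor Igf1 3 UMIs. Genes of dividing cells summed to 4.60 per 10000, with 2 UMIs of Mki67.

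**Figure D2:**
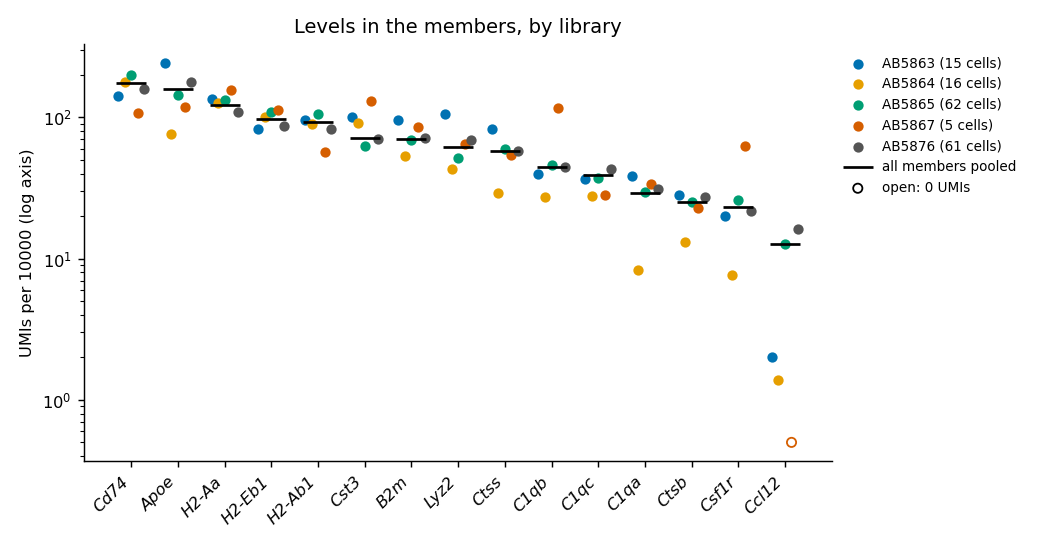
The y axis gives UMIs per 10000 in the members on a log axis for 15 genes along the x axis. Each filled circle is the sum over the members of 1 library, the open circle marks 0 UMIs, and the bar marks all members pooled. The 4 MHC class II genes lay between 56.7 and 200 in every library, while Ccl12 ran from 0 in AB5867 to 16.2 in AB5876 and C1qb was highest in AB5867.

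Lists of other cell types ranged from 0 UMIs to 13 per 10000 in the members. Mast cell and basophil, neuron and haemoglobin genes had 0 UMIs, the 11 T and NK cell genes 2 and the astrocyte genes 2. The endothelial genes had 32 UMIs in 20 members (12.6%), with Cldn5 and Kdr at 0, and measured 7.09 per 10000 in AB5863 and 0 to 2.84 in the other libraries. The oligodendrocyte genes had 16 UMIs in 12 members. The B cell genes had 70 UMIs in 41 members (25.8%, 15% at 500 UMIs), 64 of them Ighm, while 8 of the 10 genes, Cd79a, Ms4a1 and Igkc among them, were at 0; the list measured 2.02 to 3.58 per 10000 in 4 libraries and 39.7 in AB5867, and the 3 members with 4 or more such UMIs each had at least 11 macrophage UMIs. The 16 genes of conventional dendritic cells had 123 UMIs in 62 members (39%, 22.8% at 500 UMIs), 52 of them of the shared myeloid factor Irf8. They summed to 6.29 per 10000 (exact Poisson interval 5.22 to 7.5) in the members. Among other cells with high MHC class II, the sum was 3.11 in border macrophages and 4.67 in microglia. It was 8.59 in Cd209a cells, 12.3 in cells that failed only the Ly6c2 clause and 7.56 in neutrophil wells. These differences were not tested. The 6 genes of plasmacytoid dendritic cells had 112 UMIs in 56 members (35.2%, 20% at 500 UMIs), 90 of them of the interferon-induced Bst2 and the rest of Tcf4. Of Flt3, Zbtb46, Xcr1 and Clec9a, the narrowest dendritic cell genes, 9 members had a UMI (5.66%, 2.81% at 500 UMIs), and 1 of these had no macrophage UMI. These 4 genes were found in 5 of 42 Cd209a cells and 0 of 31 neutrophil wells, which allows a share of up to 9.68%. The 10 neutrophil genes summed to 13 per 10000, but to 80 in AB5864 and 53.9 in AB5867 against 3.69 to 9.74 in the other libraries. All 10 were detected, and 3 members had 10 or more such UMIs. In neutrophil wells they summed to 3320, and 0 members met the threshold of a neutrophil well. The part of such stray RNA in the values of AB5864 and AB5867 was not tested.

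Members were then compared with 3 kinds of cell that failed only a single clause. UMIs were summed per library and kind of cell, and edgeR's quasi-likelihood test was fitted with a term for each library, with Benjamini-Hochberg adjustment over all genes tested outside the rule. Against Cd209a cells (more than 2 UMIs of Cd209a, Napsa, Olfm1, Ccl17 and Alcam, genes of monocyte-derived and conventional dendritic cells), the members carried a broad set of macrophage genes at higher levels. Clptm1, Apoe and Maf had the largest rises, and Cfp, Cbfa2t3 and S100a6 the largest falls. The test used 139 members and 36 Cd209a cells from AB5864, AB5865 and AB5876.

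Of 565 genes tested, 48 were higher in the members (8.5%) and 11 lower (1.95%), at an adjusted p under 0.05. The largest tested rise after Clptm1 was Apoe, which measured 75.9, 143 and 179 per 10000 in members of AB5864, AB5865 and AB5876 and 9.76, 17.6 and 10.8 in Cd209a cells. The groups did not overlap, and the log2 fold change was 3.65 ± 0.33 (SE, adjusted p = 1.56e-05). Clptm1 rose by 4.4 ± 0.38 (adjusted p = 1.56e-05), from 0 to 3.43 per 10000 in Cd209a cells to 8.35 to 47.6 in the members.

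Of the 12 macrophage genes, 11 were tested and 8 rose, and the median log2 fold change of the 11 was 2.30 beside 0.03 over all genes tested. C1qb rose by 2.78 ± 0.29 (adjusted p = 5.72e-05), from 4.18, 10.3 and 5.39 per 10000 to 27.1, 45.8 and 44.3. C1qc rose by 2.54, C1qa by 2.21, the high-affinity antibody receptor Fcgr1 by 2.45, the lipopolysaccharide co-receptor Cd14 by 2.30, and the macrophage transcription factor Maf by 3.17. Maf had 0 UMIs in both kinds of cell in AB5864. Csf1r, the receptor for the macrophage growth factor CSF1, rose by 1.44 ± 0.32 and was higher in 2 of 3 libraries, with 7.65 per 10000 in members and 11.2 in Cd209a cells of AB5864. Adjusted p-values of the genes named here lay between 5.72e-05 for C1qb and 0.0425 for Cd14.

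Of 19 lysosomal genes, 17 were tested and 10 rose, among them Ctsb, Ctsc, Ctsd, Ctss, Ctsz, Grn, Hexa, Lgmn and Psap, with a median of 1.34 over the 17. The other 7 did not pass, and of these Cst3 differed by -0.07 ± 0.25 and was lower in 3 of 3 libraries. Grn was higher in 2 of 3 libraries and the other 9 in 3 of 3. Ctsz, a carboxypeptidase of the cathepsin family, rose by 2.96 ± 0.44 (adjusted p = 0.000829), and Ctsb by 2.18 ± 0.27 (adjusted p = 0.000188). Ctsb measured 13.2, 25.1 and 27.1 per 10000 in the members and 2.79, 7.59 and 6.29 in Cd209a cells. Of 6 tested genes of MHC class II loading, Ctss and the protease Lgmn rose, by 1.47 and 1.70. H2-DMb1 at 0.98 ± 0.32 (adjusted p = 0.0684) and H2-DMa at 0.05 ± 0.31 (adjusted p = 0.962) did not pass. Of 7 tested MHC class I genes, B2m rose by 0.98 and H2-K1 by 1.00.

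Ccl12 rose by 2.85 ± 0.43 (adjusted p = 0.000918), with 1.39, 12.7 and 16.2 per 10000 in the members and 1.39, 2.69 and 1.35 in Cd209a cells. It was higher in AB5865 and AB5876 and, though both values round to 1.39, lower in AB5864. Lyz2 rose by 2.80, the semaphorin and VEGF co-receptor Nrp1 by 2.63 and Trem2 by 2.27. Of 6 tested microglia genes outside the rule, 4 rose, among them the fractalkine receptor Cx3cr1 by 1.49, Siglech, a sialic acid receptor, by 2.24 and Tgfbr1, a receptor for TGF-beta, by 2.36. Lst1, a small myeloid transcript, and the predicted gene Gm21970 rose by 2.94 and 2.89. Of 5 tested genes of the handling response, Jun rose by 2.38, and of 6 tested interferon-induced genes Ifi27l2a rose by 1.70.

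Of the 9 tested genes of recruited monocytes and macrophages, 3 fell (Lsp1, S100a4 and S100a6), with a median log2 fold change of -0.99 over the 9. Among all falls, Cfp, which encodes the complement stabiliser properdin, fell by 4.65 on the log2 scale (SE 0.89, adjusted p = 0.00487), from 2.79, 5.39 and 4.04 per 10000 in Cd209a cells to 0.696, 0 and 0.112. S100a4 fell by 2.22 and S100a6 by 2.44, both calcium-binding proteins of motile myeloid cells, S100a11 by 2.39, the actin-binding Lsp1 by 2.29 and the corepressor Cbfa2t3 by 2.45. Id2, an inhibitor of helix-loop-helix factors needed by conventional dendritic cells, fell by 2.38 (SE 0.57, adjusted p = 0.0178). Mgl2, a lectin shared by some dendritic cells and border macrophages, fell by 1.20. Rplp0 and the pseudogene row Gm8730, whose reads may be shared with a parent gene, fell by 0.90 and 1.05. None of the 16 dendritic cell genes outside the rule was abundant enough to be tested. The groups were separated by other genes of monocyte-derived and conventional dendritic cells. The directions of these lists, rises and falls, are therefore not independent evidence. Cfp, Cbfa2t3 and S100a6 passed the filter on low counts only through Cd209a cells. A gene that enters the test through 1 group alone has its direction fixed by the filter.

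These counts depended on the libraries. Without AB5864 the test called 93 higher and 36 lower, without AB5865 16 and 4, and without AB5876 9 and 0. Apoe, Clptm1, Lyz2, Ctsb, C1qa, C1qb and C1qc passed in all 14 alternative settings, and Ctsz and Ccl12 in the 11 that could test them. Other calls were lost more often: Lst1 passed in 2 of 7 settings that tested it, Ifi27l2a in 3 of 13, Grn in 6 of 14, Hexa and Jun in 5 of 11, Gm21970 and Cd14 in 5 of 9 and Maf in 5 of 8. Of the falls, Cfp passed in 8 of 9, Id2 in 8 of 14 and S100a11 in 7 of 14. Cd209a cells were deeper than the members (median 1355 against 956 UMIs), and the clause that separates them counts raw UMIs, which a deeper cell reaches more easily.

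**Figure D3:**
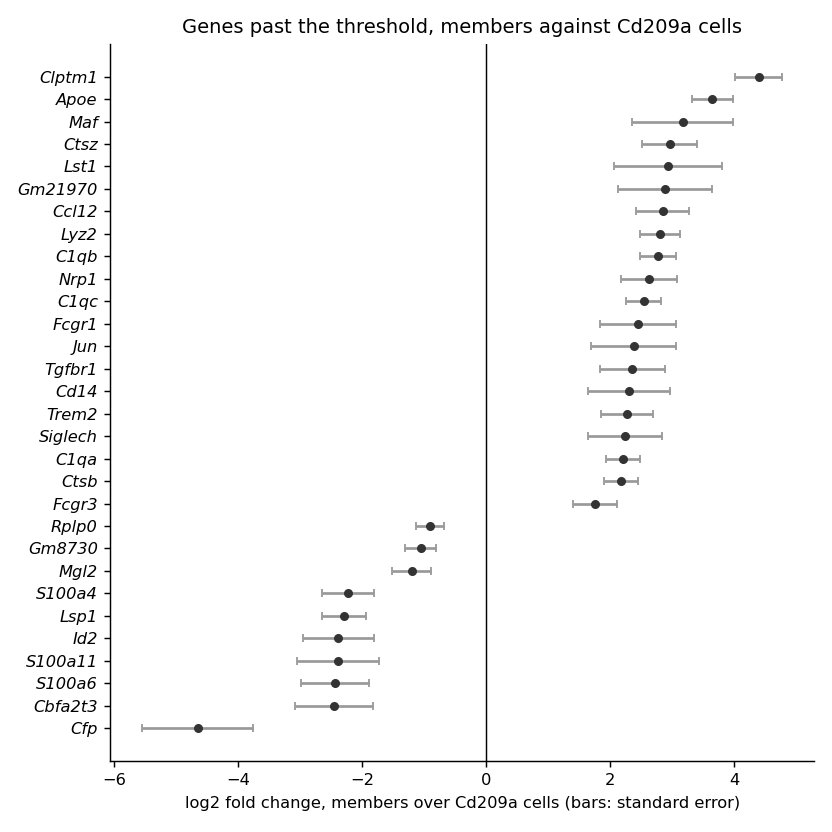
Points give the log2 fold change of members over Cd209a cells on the x axis with bars for the standard error, for named genes on the y axis that passed the threshold. The 20 rises shown include Clptm1 at 4.4 and Apoe at 3.65, and the 10 falls end with Cfp at -4.65.

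Against microglia with high MHC class II (microglia sum of 80 or more, every other clause as in the members), the members had lower levels of microglia and lysosomal genes that the clause does not use. No gene was called higher. The test used 139 members and 29 microglia from AB5864, AB5865 and AB5876. Of 320 genes tested, 5 were lower in the members (1.56%) and 0 higher (0%), while 31 and 20 had an unadjusted p under 0.05. DESeq2 called 3 lower and 0 higher.

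Cst3, the secreted protease inhibitor cystatin C, measured 91.2, 62.9 and 70.1 per 10000 in the members and 211, 153 and 103 in microglia. It fell by 1.14 on the log2 scale (SE 0.24, edgeR adjusted p = 0.00395), with no overlap between the groups. Cx3cr1 measured 11.8, 14.5 and 13.9 in the members and 39.9, 34.6 and 27.1 in microglia. Cx3cr1 fell by 1.41 (adjusted p = 0.00934), Siglech by 1.56 (adjusted p = 0.0107) and the asparaginyl protease Lgmn by 1.28 (adjusted p = 0.0372), each in 3 of 3 libraries. Of the 7 tested microglia genes outside the rule, 4 passed, Cst3, Cx3cr1 and Siglech among them, and all 7 had a negative log2 fold change (median -1.33, beside 0.10 over all genes). The groups were separated by other microglia genes of the same cells, so this list is not independent evidence of its direction. Part of the list also passed the filter on low counts only through microglia.

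Of 5 tested genes of MHC class II loading, Lgmn alone passed. H2-DMa measured 8.35, 11.7 and 7.95 per 10000 in the members and 0.974, 6.51 and 1.75 in microglia, and H2-DMb1 11.8, 9.80 and 9.18 against 5.84, 2.85 and 2.62. Both were higher in 3 of 3 libraries, with log2 fold changes of 1.36 ± 0.52 (adjusted p = 0.158) and 1.41 ± 0.49 (adjusted p = 0.125). Apoe differed by -0.03 ± 0.24 (adjusted p = 0.959), Lyz2 by 0.18 ± 0.27 and C1qb by -0.51 ± 0.27. Apoe and Lyz2 were higher in 2 of 3 libraries and C1qb lower in 3 of 3. The 5 falls rested on few microglia: without AB5864 or without AB5865 the test called 0 lower, and without AB5876 it called 10.

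**Figure D4:**
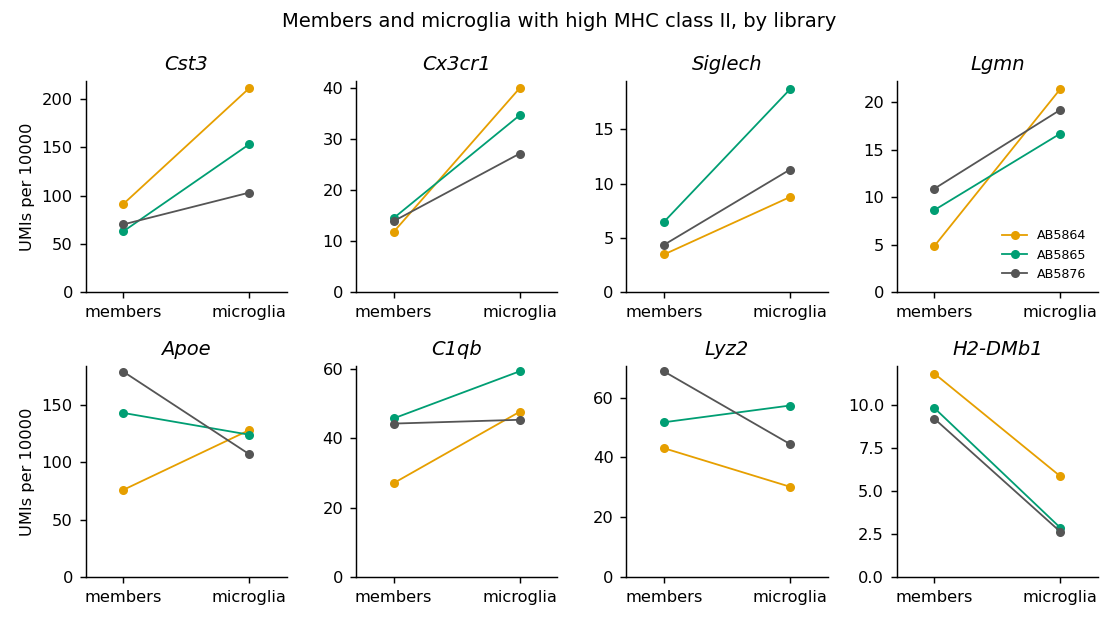
Each panel gives the UMIs per 10000 of 1 gene on the y axis, with the members at the left and microglia with high MHC class II at the right, and each line joins the sums of 1 library. Cst3, Cx3cr1, Siglech and Lgmn sit lower in the members in all 3 libraries and H2-DMb1 higher, while the lines of Apoe and Lyz2 cross.

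Against border macrophages with high MHC class II (border sum of 40 or more), no gene passed the threshold in the fit described above, and this depended on the processing. The test used 123 members and 47 border macrophages from AB5865 and AB5876, the only libraries with at least 5 cells of both. Of 769 genes, 0 were higher (0%) and 0 lower (0%) by edgeR, while 38 and 48 had an unadjusted p under 0.05, and DESeq2 called 2 and 4. The 2 that DESeq2 called higher were rows of ribosomal RNA sequence, as was mt-Rnr2 among the 4 lower. The smallest adjusted p was 0.4. Without the rows of ribosomal RNA sequence the same test called 6 higher and 6 lower, and at a microglia sum of 40 it called 13 and 12. Leaving out either library leaves 1 plate and no test, and a missed threshold does not show that the cells were alike.

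Lyz2 measured 51.8 and 68.8 per 10000 in members of AB5865 and AB5876 and 73.5 and 71.5 in border macrophages, a log2 difference of -0.23 ± 0.18 (adjusted p = 0.617). C1qb differed by 0.04 ± 0.21, Ctss by 0.29 ± 0.15 and Ccl12 by -0.20 ± 0.22, which measured 12.7 and 16.2 in the members and 15.8 and 18.6 in border macrophages. Tmem91 differed by 0.05 ± 0.65. Apoe measured 143 and 179 per 10000 in the members and 213 and 227 in border macrophages, lower in 2 of 2 libraries (log2 difference -0.42 ± 0.11, adjusted p = 0.4). It passed in 3 alternative settings. Neither Ccl12 nor Tmem91 differed beyond its error between the members and border macrophages.

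Border genes outside the clause leaned the way of the clause. Of 12, 6 were tested and all 6 had a negative log2 fold change (median -1.37, beside 0.06 over all genes), none past the threshold, and the same cells were separated by other border genes. Some of the 6 passed the filter on low counts only through border macrophages, which fixed their direction in advance. F13a1, the A chain of coagulation factor XIII, measured 2.67 and 2.35 per 10000 in the members and 7.35 and 6.87 in border macrophages (log2 difference -1.46 ± 0.34, adjusted p = 0.4). A further 3 genes were picked out after their values were seen. Maf measured 3.82 and 6.72 in the members and 21.0 and 16.6 in border macrophages (-1.78 ± 0.36), and the selenium carrier Selenop 13.1 and 20.2 against 38.9 and 37.2 (-1.16 ± 0.25). Tgfbr1 measured 8.02 and 5.49 against 2.10 and 1.62 (1.87 ± 0.37). All 3 had an adjusted p of 0.4 by edgeR's quasi-likelihood test. Maf passed in 7 alternative settings, and Selenop and Tgfbr1 in 5 each, the highest counts of any gene in this comparison. The settings share plates and cells and the genes were picked afterwards, so these counts are not independent evidence. Without the ribosomal RNA rows the adjusted p by that test was 4.01e-06 for Maf, 6.57e-04 for Selenop and 0.0181 for Tgfbr1.

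**Figure D5:**
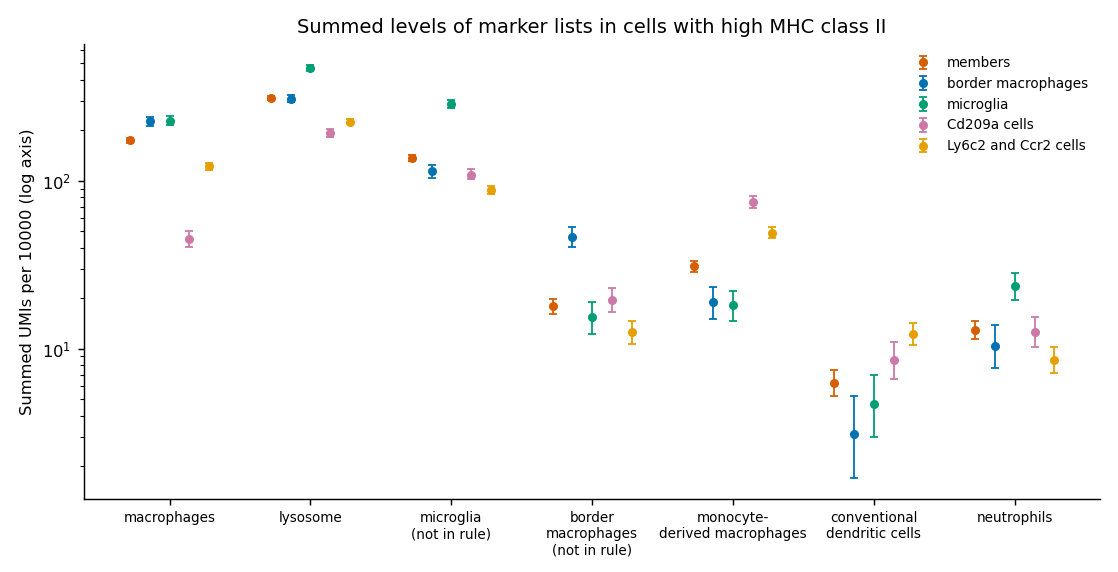
The y axis gives summed UMIs per 10000 on a log axis for 7 gene lists along the x axis, with a point for each kind of cell and bars for exact Poisson 95% intervals, which cover counting error only. Members sit between microglia and Cd209a cells for the macrophage list (175 per 10000, against 228 and 45.3), and below border macrophages for border genes outside the rule (17.9 against 46.6).

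Side by side and with no test, the macrophage genes summed to 175 per 10000 in members, 226 in border macrophages, 228 in microglia, 122 in cells of the Ly6c2 clause and 45.3 in Cd209a cells. The recruited monocyte and macrophage genes that the rule does not use summed to 31.0 in members, 18.9 in border macrophages, 18.1 in microglia, 49.1 in cells of the Ly6c2 clause and 74.4 in Cd209a cells. Within the members this last sum was 65.8, 52.9, 29.9, 11.3 and 25.3 in the 5 libraries, beside 18.1 to 74.4 between the kinds of cell. Of its 18 genes, Ly6c1 and Vcan had 0 UMIs in the members, Fn1 1 and Chil3 9, while Vim, the intermediate filament vimentin, and Tgfbi, a matrix protein, had 109 and 111.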

How the data were processed

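Single CD45high CD11bhigh brain cells were sorted into 384-well plates and sequenced by MARS-seq, with 1 plate per library, 1 sequencing batch and 1900 wells with a cell. The tables deposited by the authors hold raw counts of UMIs, 1 row per gene and 1 column per well, with no normalization, beside a table of wells. bcl2fastq 2.15.0.4 and mm10 are named in the submitters' processing notes, and the aligner was not given in the sources used here. Reads had been demultiplexed, mapped, filtered and collapsed to unique molecules before deposit, and how multi-mapping reads were shared is not stated, which bears on gene copies such as ribosomal pseudogenes. Doublets were excluded by the sort, and no doublet caller was run.

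Here the 92 spike-in rows were left out of all totals, wells with 1 cell and at least 500 UMIs were kept, and levels were scaled to 10000 UMIs. UMIs were summed per library and kind of cell where both kinds had at least 5 cells. The sums were tested with edgeR 4.0.16 in R 4.3.3 (filterByExpr, TMM, robust quasi-likelihood test, library as a term, Benjamini-Hochberg adjustment, threshold 0.05). The library term pairs the samples because both sums came from 1 plate. The genes of the rule were normalised with the rest and left out of the tests. Alternatives were DESeq2 1.42.0, other size factors, no filter, no library term, other cell minimums and thresholds, omission of ribosomal RNA rows, and each library left out. The fit was tested on simulated data, which held no differences between plates apart from depth. Of simulated log2 changes of 1, it recovered 21.2% against border macrophages, 39.6% against microglia and 35.1% against Cd209a cells. Of log2 changes of 2 it recovered 83.7%, 90.9% and 92.3% in the same order. False calls were 4.08%, 2.82% and 5.13% of those made. Cell selection and counts used Python 3.11.15 with pandas 2.3.3 and scipy 1.17.1. Shares were also thinned to 500 UMIs a cell by the hypergeometric expectation, and intervals are exact at 95% and cover counting error only. A count of 0 was taken to allow 3 counts.

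Named genes were the genes of the rule, Tmem91 and Ccl12, up to 10 rises and 10 falls past the threshold with 1 direction in every library, up to 4 of each list with the highest level and any past the threshold, and the 15 most abundant others. Some genes of these lists are counted in them but not reported here by name. The members and lists were chosen with earlier results of these data known.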

Additional observations from a re-analysis of the deposited data

Results flagged for a closer look

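Of 46 measures compared over the 5 libraries, 6 had a library that stood apart by Dixon's test at the 95% level, and chance gives about 1 in 20. AB5867, with 5 members and 3526 member UMIs, set 5 of them. Its share of members among kept cells was 7.04%, against 18.4% to 22.1% in the others. Its members were high in microglia genes: the microglia sum was 51 per 10000 (16.2 to 21.6 in the others) and the microglia genes outside the rule measured 323 (127 to 170). C1qb was 116 per 10000 in AB5867 (27.1 to 45.8 in the others), and its chemokine sum was 17 (36.4 to 40.5). AB5867 entered none of the tested comparisons. In AB5864 the MHC class I sum was 97.4 per 10000, against 128 to 139 in the others.

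Among wells too shallow for the cell minimum, 74 wells with at least 300 but fewer than 500 UMIs passed every other clause. The 20 empty wells held at most 68 UMIs, so none could enter this range and they give no background for it.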

How the results depend on the processing

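The members had a median of 956 UMIs, so a gene absent from a cell was often below detection, and the tests rested on 2 or 3 plates that are not tied to separate mice. A minimum of 1000 UMIs left 74 of the 159 members, and leaving out 1 library left 97 to 154. At that minimum the test against microglia could not be fitted.

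Against Cd209a cells (48 higher, 11 lower), the counts were 20 and 5 by DESeq2, 31 and 1 with no filter on low counts and 29 and 3 at a microglia sum of 40, and 7 lower with DESeq2 size factors. They ranged from 9 to 93 higher and from 0 to 36 lower when a library was left out. Against microglia (0 higher, 5 lower), 1 higher and 3 lower were called at an MHC class II sum of 300, 4 and 17 at a border sum of 20, and 1 lower at a microglia sum of 40. DESeq2 and the 300 UMI minimum called 3 lower, and 0 were lower with no filter or with a minimum of 3 cells. Leaving out a library gave 0 to 1 higher and 0 to 10 lower. Against border macrophages (0 and 0), the counts were 2 and 4 by DESeq2, 1 and 3 at 1000 UMIs, 6 and 8 at an MHC class II sum of 300, 5 and 7 at a border sum of 20, 13 and 12 at a microglia sum of 40, and 6 and 6 without ribosomal RNA rows. With no filter 8 were higher, and at 300 UMIs 2 were lower. The causes of these shifts were not tested. Some of the settings also leave fewer cells or genes.

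Without the library as a block, 18 genes were higher and 5 lower against Cd209a cells, 0 lower against microglia, and 0 and 0 against border macrophages. Ccl12 against microglia (-0.08) turned positive without the block (0.03), with no filter (0.74) and at a microglia sum of 40 (0.08), and ranged from -0.23 to 0.16 when a library was left out. Against border macrophages, Ccl12 turned to 0.30 with no filter, and Tmem91 ranged from -0.03 to 0.02 when a library was left out. Of the named genes' values in the tests, 470 kept their direction and side of the threshold, 196 lost the threshold and 6 changed sign.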

Other observations

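Of the members, 144 had a UMI of the Fc receptor genes, which bind antibody, and 145 had one of the 16 scavenger and uptake genes. At 500 UMIs the shares were 78.5% and 82.9%, near the 76.6% and 84.7% of all kept cells. In neutrophil wells they were 56.2% and 73.9%. Of the 6 Fc receptor genes all were detected, with a sum of 37.8 per 10000. Fcer1g, the shared signalling chain, was at 13.3 per 10000 and varied from 11.1 to 15.3 over the 5 libraries. Fcgr3 was at 10.5, with 0 UMIs in AB5867, and the inhibitory receptor Fcgr2b at 5.42. Axl, a receptor for dying cells, was at 9.25 per 10000 and was found in 74 members. Mertk, with the same ligands, had 33 UMIs, Marco, a scavenger receptor, 0, and Timd4, of resident macrophages, 9. Complement genes other than C1q were sparse: the anaphylatoxin receptor C3ar1 was at 5.52 per 10000, C3 itself had 15 UMIs and Vsig4 0.

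Genes that respond to tissue handling summed to 43 per 10000 in the members, 60.4 in border macrophages, 46.1 in microglia and 35.7 in Cd209a cells. Fos measured 5.06, 9.74, 10.6, 2.84 and 10.3 per 10000 in the members of the 5 libraries, lowest in AB5867. The part of handling in the members' other values was not tested.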
